A study of Mus musculus with 7 samples.

Results

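The genes described here are 9 regulators of the G1 phase of the cell cycle: the inhibitor genes Cdkn1a and Cdkn1b, the kinase gene Cdk4, the cyclin genes Ccnd1, Ccnd3 and Ccng1, the transcription factor genes E2f5 and E2f6, and the retinoblastoma gene Rb1. They were listed by name, with earlier results of these data known, and all 9 were among the 9999 genes with a usable probe set. The RNA came from RAW264.7, an established mouse line that grows like a tumour and resembles macrophages, and was hybridised to 7 Affymetrix arrays. The labels name 3 arrays RAW WT (wild type) and 4 arrays RAW GfI1-1, and the series title names a Gfi1 knockout. All cells were untreated, labelled T0, and grown in the same serum-containing medium. The labels call the arrays of a group biological replicates. They do not say which part of Gfi1 was altered or whether replicates were grown apart, so the p-values reflect how far these 7 arrays spread, and that spread may be technical.

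As background, a cell passes from G1 into DNA replication when D-type cyclins and their kinases CDK4 and CDK6 phosphorylate the retinoblastoma protein, which then releases E2F transcription factors from repression. The inhibitors p21 (Cdkn1a) and p27 (Cdkn1b) bind cyclin-kinase complexes and hold this step back. Gfi1 is a zinc finger repressor of blood cells, and several of these genes, among them Cdkn1a, E2f5 and E2f6, have been reported as its targets.

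Directions below rest on the labels, because the targeted gene could not check them. Gfi1 had log2 signals of 2.66, 2.85 and 2.98 in wild type and of 4.93, 5.02, 3.97 and 3.97 in the arrays labelled knockout, which was higher (limma adjusted p = 0.00447). The wild-type arrays lay below 3.51, the 5th percentile of all genes in wild type, where a fall could hardly be seen and the size of a rise is poorly measured. Where its probe set lies relative to the alteration is not known, and this reading is therefore no check of the labels. The knockout arrays lay in 2 close pairs, the first of replicates 1 and 2 and the second of replicates 3 and 4: over all probe sets, the SD of the log2 difference was 0.16 and 0.14 within the pairs and 0.52 to 0.54 between them. No label separates the pairs. All 10 listed macrophage markers were measured, and their mean log2 signal was 10.69 to 10.73 in wild type and 9.86 to 9.96 in knockout. Of the 10, 8 fell, beside 21.6% of all genes lower in the test described below. In bulk RNA, fewer cells of a type and less RNA per cell cannot be told apart. The listed markers of T cells, B cells, fibroblasts, epithelial cells, erythroid cells and neutrophils were not among the 9999 genes, so they were not analysed here. The part of the lower macrophage markers in the differences below was not tested.

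E2f5 and Cdkn1b rose in the arrays labelled knockout, Cdk4, Rb1 and Ccng1 fell, and Cdkn1a, Ccnd1, Ccnd3 and E2f6 did not pass the test. The test was limma with Benjamini-Hochberg adjustment over 9999 genes, at an adjusted p of 0.05, on log2 signal. The count of 5 of 9, or 55.6% (2 higher, 3 lower), stands beside 43.1% of all genes past the same threshold (21.5% higher, 21.6% lower), so the members' share was near the background. The same 5 genes were those whose knockout arrays did not overlap the wild-type arrays, beside 54.5% of all genes (26.5% higher, 27.9% lower). E2f5 rose 1.60-fold, Cdkn1b rose 1.34-fold, and wild type over knockout was 1.46-fold for Cdk4, 2.02-fold for Rb1 and 2.24-fold for Ccng1. Rb1 and Ccng1 were the 2 members that passed with at least a 2-fold change, as 7.56% of all genes did. The median log2 difference of the 9 genes was -0.08, and that of all genes was -0.0057. These calls treat the 4 knockout arrays as independent. With the wild-type arrays and each knockout pair as random blocks, 0 of the 9 genes passed in limma (lowest adjusted p = 0.0697), 5 had an unadjusted p under 0.05, and 9.04% of all genes passed.

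**Figure D1:**
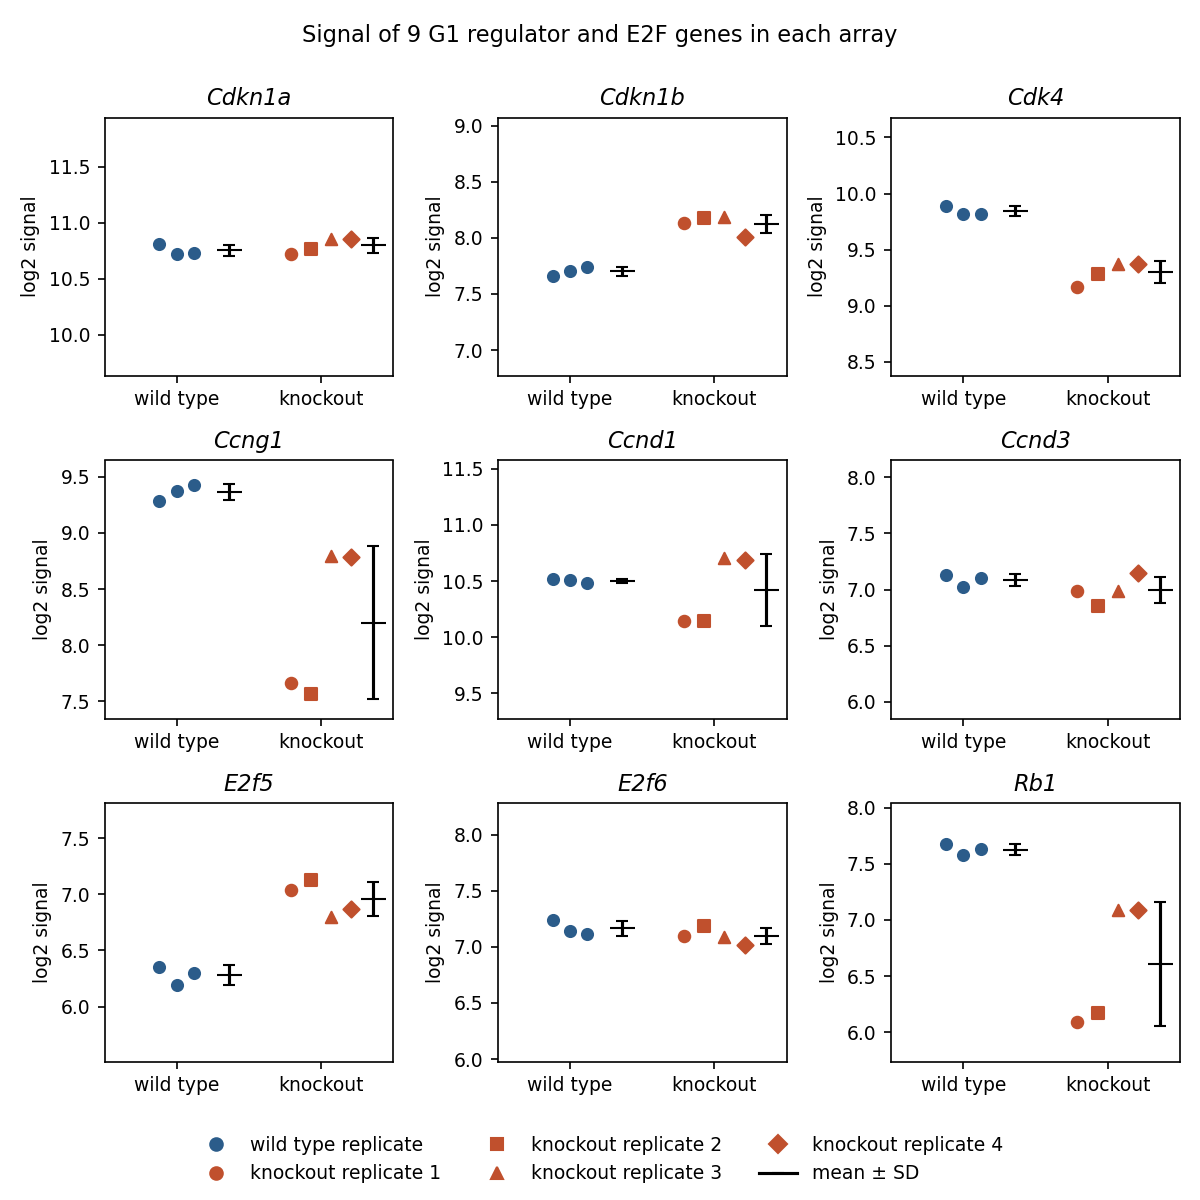
Log2 signal of each gene in each array (vertical axes, one scale length in all panels), wild type in blue and arrays labelled knockout in red by replicate, with group mean ± SD in black (n = 3 and 4). Knockout replicates 1 and 2 sit apart from replicates 3 and 4 for Ccng1, Rb1 and Ccnd1, while all 4 lie together for Cdk4 and Cdkn1b.

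The bases before a transcript start are shown for 3 members that differ in direction: Cdkn1a, a reported Gfi1 target that did not pass, Ccng1, which fell, and Cdkn1b, which rose. Each is the 250 bases before a start listed by RefSeq for build GRCm38.p6, 5′ to 3′ on the gene's strand. Capitals mark the 4-base core of the Gfi1 site, AATC on either strand (GATT in the printed letters when it lies on the opposite one), and, in Cdkn1a, a p53-type pattern of CATG, 6 bases of any kind and CATG again, which reads alike on both strands.
Cdkn1a, chr17:29090729-29090978, plus strand: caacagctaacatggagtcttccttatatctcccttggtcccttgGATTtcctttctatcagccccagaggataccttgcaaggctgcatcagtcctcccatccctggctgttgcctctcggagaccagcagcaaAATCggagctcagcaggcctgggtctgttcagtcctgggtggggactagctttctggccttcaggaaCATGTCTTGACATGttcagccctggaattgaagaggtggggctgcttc
Ccng1, chr11:40755287-40755536, minus strand: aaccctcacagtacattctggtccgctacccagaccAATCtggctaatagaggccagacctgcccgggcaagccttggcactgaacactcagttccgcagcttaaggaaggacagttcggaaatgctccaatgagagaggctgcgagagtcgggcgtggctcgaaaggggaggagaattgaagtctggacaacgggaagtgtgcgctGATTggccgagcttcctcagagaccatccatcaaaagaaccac
Cdkn1b, chr6:134920151-134920400, plus strand: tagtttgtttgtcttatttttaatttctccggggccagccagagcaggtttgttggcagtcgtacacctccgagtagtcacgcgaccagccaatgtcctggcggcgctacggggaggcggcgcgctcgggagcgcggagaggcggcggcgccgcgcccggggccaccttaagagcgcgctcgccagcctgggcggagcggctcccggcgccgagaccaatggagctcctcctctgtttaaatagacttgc

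The printed Cdkn1a window held 2 Gfi1 cores, with first bases 205 and 115 bases before the start, and the p53-type pattern at 48 to 35 bases before it. RefSeq lists a second Cdkn1a start, whose window (chr17:29093519-29093768) held 1 core, 119 bases before the start, and no p53-type pattern. The Ccng1 window held 2 cores, 214 and 43 bases before the start, and the Cdkn1b window held 0. Of 8 windows listed for 6 members (Cdkn1a, Cdkn1b, Cdk4, Ccng1, Ccnd3 and E2f6), 5 held the core, beside 69% of all 32851 windows of the same length, so the core was as common elsewhere. A longer Gfi1 pattern, AATCACNGC, was in 0 of the 8 windows and 0.776% of all windows. The p53-type pattern was in 1 of the 8 and in 0.49% of all, and the E2F patterns TTTCCCGC, TTTGGCGC, TTTCGCGC and TTTGCCGC, searched on both strands, in 0 of the 8 and in 1.86% of all. The patterns do not overlap each other, apart from the 2 Gfi1 patterns, which share their first bases. No window was listed for E2f5, Ccnd1 and Rb1.

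Of the inhibitors, Cdkn1b rose and Cdkn1a did not pass. Cdkn1b, which codes for p27, had log2 signals of 7.66, 7.71 and 7.74 in the wild-type arrays and 8.13, 8.18, 8.19 and 8.01 in knockout replicates 1 to 4. The 4 knockout arrays lay above all 3 wild-type arrays, and both pairs did so alike. The means were 7.70 ± 0.04 (SD, n = 3) and 8.12 ± 0.08 (SD, n = 4), a difference of 0.42 (SE 0.07, limma adjusted p = 0.00259). A dimmer Cdkn1b probe set, 1419497_at, showed another pattern: it read 5.23, 5.03 and 5.04 in wild type, 5.60 and 5.79 in the first knockout pair, and 5.10 and 5.07 in the second. Its groups overlapped, and it did not pass (0.29, SE 0.19, adjusted p = 0.261 over 17335 probe sets).

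Cdkn1a codes for p21, the inhibitor that p53 induces. Its log2 signals were 10.81, 10.72 and 10.73 in wild type and 10.72, 10.76, 10.85 and 10.86 in knockout. The arrays interleaved, and the difference was 0.04 with a 95% interval of -0.11 to 0.19 (limma adjusted p = 0.62). With random blocks the interval was wider, at -0.30 to 0.39. The other Cdkn1a probe set, 1421679_a_at, overlapped as well, at 10.13 to 10.27 in wild type and 10.06 to 10.29 in knockout.

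Cdk4, the catalytic partner of the D-type cyclins, fell, and it was the member with the lowest adjusted p. Its log2 signals were 9.89, 9.82 and 9.82 in wild type and 9.16, 9.29, 9.37 and 9.38 in knockout. Every knockout array was lower by 0.47 to 0.68, and the groups were apart. The difference was -0.54 (SE 0.07, limma adjusted p = 0.00123). The probe set used, 1422441_x_at, is of a type with probes that can match other transcripts too. The other Cdk4 probe sets, 1422440_at and 1422439_a_at, were also lower, at -0.61 (SE 0.08) and -0.50 (SE 0.09), with adjusted p = 0.00128 and 0.00516 over all probe sets. All 3 probe sets thus placed every knockout array below every wild-type array.

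The D-type cyclins did not pass over the 4 knockout arrays. Ccnd1, which codes for cyclin D1, had log2 signals of 10.51, 10.51 and 10.48 in wild type, 10.14 and 10.15 in the first knockout pair (replicates 1 and 2), and 10.71 and 10.69 in the second (replicates 3 and 4). One pair lay below every wild-type array and the other above, so that the mean difference was small (-0.08, SE 0.17, 95% interval -0.47 to 0.31, limma adjusted p = 0.711). Without replicates 3 and 4 Ccnd1 was lower (-0.36, SE 0.05, limma adjusted p = 0.000778), and without replicates 1 and 2 it was higher (0.19, SE 0.05, adjusted p = 0.014). Both p-values take 2 close arrays as independent and so rest on the closeness within a pair. With random blocks Ccnd1 did not pass (limma adjusted p = 0.858). The 3 Ccnd1 probe sets shared the order of the pairs but not their place against wild type: replicates 1 and 2 stood at 0.05 and 0.07 from the wild-type mean in 1417419_at and at -0.51 and -0.59 in 1448698_at, and replicates 3 and 4 at 0.40 and 0.43, and at -0.10 and -0.01. Neither of these probe sets passed (adjusted p = 0.162 and 0.156 over all probe sets).

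Ccnd3, which codes for cyclin D3, had 1 probe set with log2 signals of 7.13, 7.03 and 7.10 in wild type and 6.99, 6.86, 6.99 and 7.14 in knockout. Knockout replicates 1 to 3 lay below the wild-type arrays and replicate 4 above them, so the groups overlapped. The difference was -0.09 (95% interval -0.28 to 0.10, limma adjusted p = 0.385).

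Ccng1 codes for cyclin G1, a p53 target that binds a phosphatase subunit rather than driving G1 through CDK4. On its brightest probe set it had the largest difference of the 9 genes, -1.16 (SE 0.34, limma adjusted p = 0.0289), and with probe sets averaged it came after Rb1, E2f5 and Cdk4. Its log2 signals were 9.29, 9.38 and 9.43 in wild type, 7.67 and 7.56 in knockout replicates 1 and 2, and 8.79 in both of replicates 3 and 4. All knockout arrays were lower, and replicates 1 and 2 lay 1.17 below replicates 3 and 4. Without replicates 3 and 4 the difference was -1.75, and without replicates 1 and 2 it was -0.58.

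The Ccng1 probe sets went opposite ways. The brightest, 1420827_a_at, gave the values above, and 1450017_at was lower too (-0.68, SE 0.15, adjusted p = 0.0114 over all probe sets). The probe set 1450016_at was higher: 7.95, 7.85 and 7.87 in wild type against 8.41, 8.39, 8.11 and 8.03 in knockout (0.34, SE 0.11, adjusted p = 0.0447). In each of the 3 probe sets the groups were apart and replicates 1 and 2 lay farther from wild type. Which part of the transcript each probe set reads is not known here, so the fall holds for the brightest probe set and for the mean of the 3 (-0.50, adjusted p = 0.0221 over genes), not for every one. The call for Ccng1 ended without any 1 of the 3 wild-type arrays (adjusted p of 0.0762 to 0.0898) and without knockout replicate 1 or 2 (0.0585 and 0.0507).

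**Figure D2:**
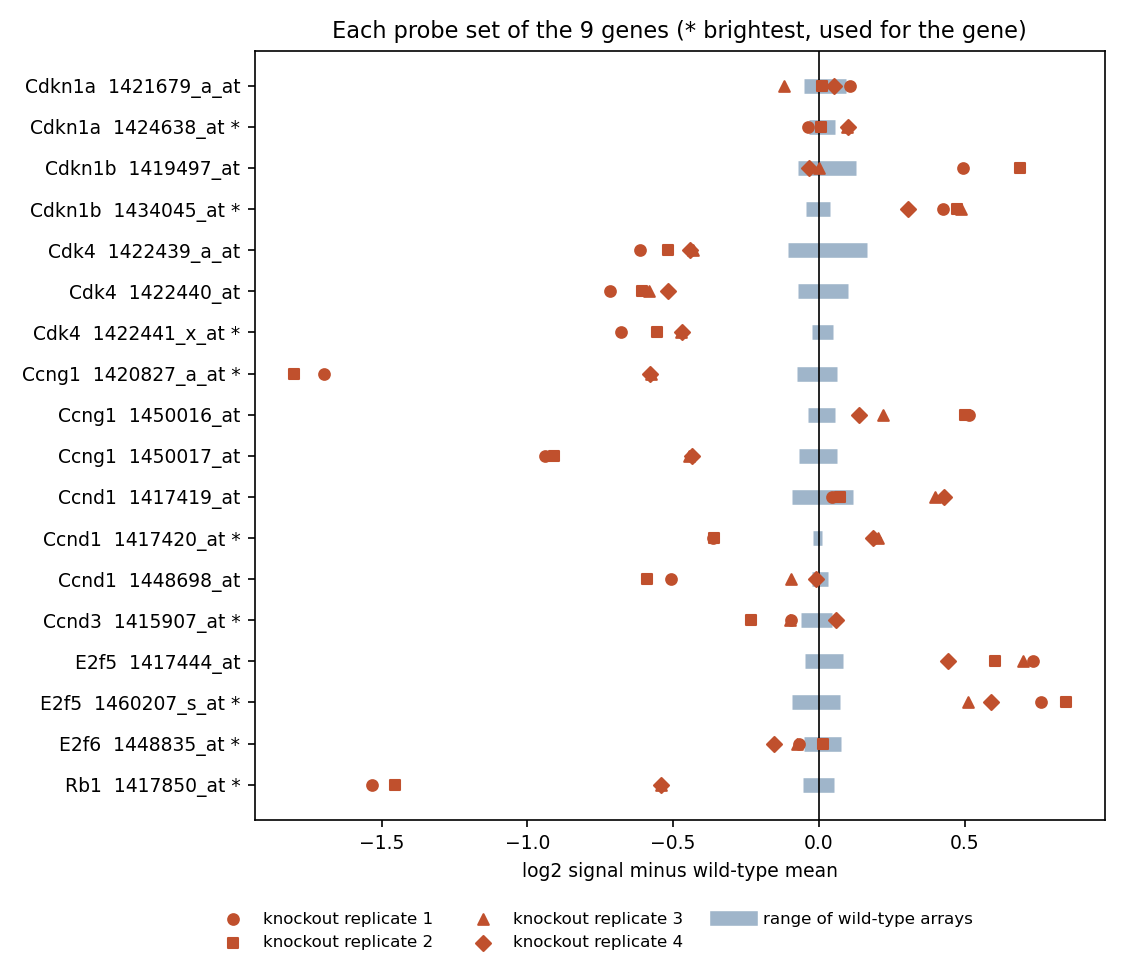
Log2 signal of each knockout array minus the wild-type mean (horizontal axis) for all 18 probe sets of the 9 genes (rows), with the range of the 3 wild-type arrays as a blue bar. The Cdk4 and E2f5 probe sets keep to 1 side of the bar, while 1450016_at of Ccng1 lies on the other side from the 2 other Ccng1 probe sets.

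Among the factors that act on E2F sites, E2f5 rose and E2f6 did not pass. E2f5 codes for a repressive E2F that works with the pocket proteins p130 and p107. Its log2 signals were 6.36, 6.19 and 6.30 in wild type and 7.04, 7.13, 6.79 and 6.87 in knockout. All 4 knockout arrays were higher than all wild-type arrays, replicates 1 and 2 the most. The difference was 0.68 (SE 0.10, limma adjusted p = 0.0017). The probe set used, 1460207_s_at, is of a type that can read more than 1 related transcript, and the other, 1417444_at, rose by 0.62 (SE 0.09, adjusted p = 0.00208 over all probe sets).

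E2f6 codes for an E2F without a pocket protein binding domain, which represses through Polycomb proteins. It read 7.24, 7.14 and 7.12 in wild type and 7.10, 7.18, 7.09 and 7.01 in knockout on its only probe set. The groups overlapped, and the difference was -0.07 (95% interval -0.23 to 0.09, limma adjusted p = 0.42).

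Rb1 codes for the retinoblastoma protein, the pocket protein that restrains the activating E2Fs. Its log2 signals were 7.68, 7.57 and 7.63 in wild type, 6.09 and 6.17 in knockout replicates 1 and 2, and 7.09 in both replicates 3 and 4, on 1 probe set. Every knockout array was below every wild-type array, and replicates 1 and 2 lay 0.95 below replicates 3 and 4. The difference was -1.02 (SE 0.28, limma adjusted p = 0.0226). It was -1.49 without replicates 3 and 4 and -0.54 without replicates 1 and 2 (limma adjusted p = 4.97e-06 and 0.000335). Each of these fits takes 1 close pair as 2 independent arrays, so its p-value rests on the closeness within that pair. With random blocks Rb1 did not pass (limma adjusted p = 0.0869). Without any 1 wild-type array Rb1 no longer passed (0.0643 to 0.0746).

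Thus 3 of the 9 genes (Ccng1, Rb1 and Ccnd1) had a gap of at least 0.5 between the means of the knockout pairs, and each was lower in replicates 1 and 2. Such a gap was found in 20% of all genes. The other 6 members had gaps of 0.05 to 0.25 in size. Without replicates 3 and 4, 6 of 9 members passed (2 higher, 4 lower) beside 68.1% of all genes (34.1% higher, 34.1% lower). Without replicates 1 and 2, 6 passed (3 higher, 3 lower) beside 57% (27.7% higher, 29.3% lower). Both fits take 1 close pair as 2 independent arrays, so these counts rest on the closeness within that pair. Tested as single probe sets, 10 of the 18 of these genes passed (4 higher, 6 lower), beside 40.9% of 17335 (19.6% higher, 21.3% lower).

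**Figure D3:**
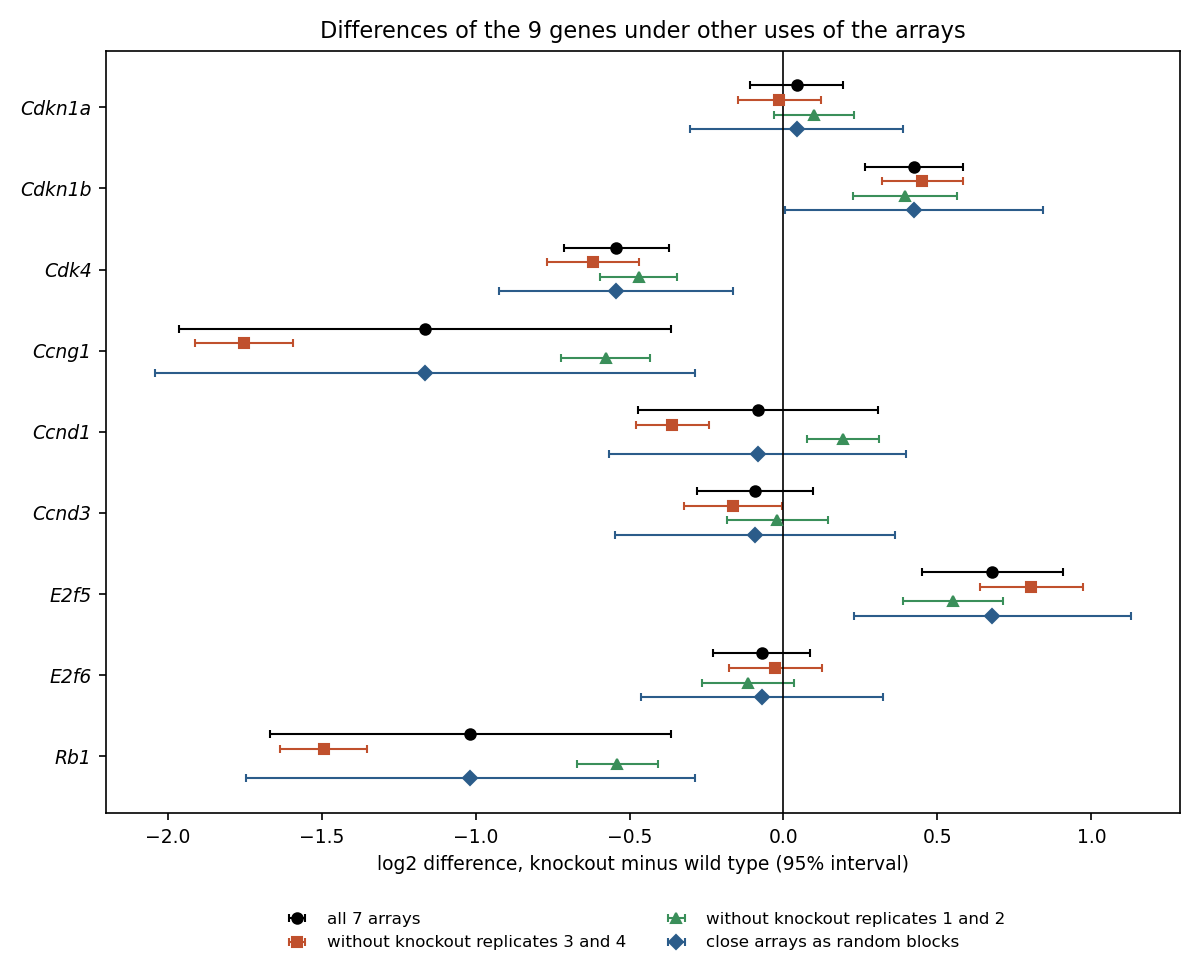
Log2 difference, knockout minus wild type, with its 95% limma interval (horizontal axis) for each gene, with all 7 arrays (black), without knockout replicates 3 and 4 (red), without knockout replicates 1 and 2 (green) and with close arrays as random blocks (blue). Ccnd1 lies on opposite sides of 0 when either pair is left out. Cdk4, Cdkn1b and E2f5 keep their side of 0, with wider intervals in the random blocks, where no gene shown passed.

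Over the 7 arrays, the 3 genes whose log2 signal followed the brightest Ccng1 probe set most closely were Nucks1, Itga4 and Stk4, each with a Pearson r of 0.999. The other Ccng1 probe sets were not compared in this way. The 7 points share their arrays and their 2 groups, so this is a description. Nucks1, a nuclear phosphoprotein gene, was at 9.49, 9.41, 10.30 and 10.30 in knockout beside 10.74 ± 0.03 (SD, n = 3) in wild type. The differences were -0.86 for Nucks1, -1.05 for the integrin gene Itga4 and -0.72 for the kinase gene Stk4.

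The relatives of the 9 genes were followed in lists set by name. Of the pocket protein genes, Rbl1 (p107) and Rbl2 (p130) fell alongside Rb1. Rbl1 read 9.24, 9.18 and 9.16 in wild type and 7.69, 7.87, 8.56 and 8.59 in knockout (-1.02, SE 0.24, limma adjusted p = 0.0121). Rbl2 read 6.63, 6.52 and 6.55, and 5.95, 5.75, 6.35 and 6.20 (-0.50, SE 0.14, adjusted p = 0.0268). For both, replicates 1 and 2 were the lowest. Rbl2 passed in 11 of the 16 alternatives that gave it a value (limma adjusted p of 0.253 at most). A dimmer Rbl1 probe set, 1425166_at, lay above wild type in all 4 knockout arrays and did not pass (0.47, SE 0.20, adjusted p = 0.107 over all probe sets), and with the mean of its probe sets Rbl1 did not pass (-0.28, adjusted p = 0.339).

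Among the 15 measured of 16 further E2F, DP and pocket protein genes, 3 fell and 0 rose, or 20% past the threshold beside 43.1% of all genes. The third that fell was E2f2, an activating E2F (-0.30, SE 0.07, adjusted p = 0.0144), which did not pass with its probe sets averaged (-0.20, adjusted p = 0.118). The brightest gene of the list, Tfdp1, which codes for the usual partner of E2F proteins, was at -0.13 (SE 0.10, adjusted p = 0.33). E2f1 was at -0.04 (SE 0.08, adjusted p = 0.726) and E2f4 at -0.02 (SE 0.09, adjusted p = 0.858). The list's median was -0.17. With probe sets averaged per gene, 1 fell and 0 rose, beside 42.3% of all genes past the threshold (20.2% higher, 22.1% lower). Without knockout replicates 3 and 4, 9 fell and 1 rose (68.1% of all genes passed), and without replicates 1 and 2, 3 fell and 2 rose (57% of all genes). With random blocks 0 fell and 0 rose, beside 9.04% of all genes past the threshold, and 1 had an unadjusted limma p under 0.05.

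Of 6 further inhibitor genes 3 were measured, and 2 fell, beside 21.6% of all genes lower. With random blocks 1 fell, beside 4.56% of all genes lower. Cdkn3, which codes for a phosphatase that acts on CDKs, fell by 1.52 (SE 0.25, limma adjusted p = 0.00286), from 8.63, 8.61 and 8.68 to 6.72, 6.68, 7.52 and 7.57. It was past the threshold under every alternative tried, random blocks included (adjusted p = 0.0161 at most). Cdkn2c, which codes for the CDK4 and CDK6 inhibitor p18, fell by 0.63 (SE 0.13, adjusted p = 0.00665). Cdkn2d (p19) read 9.30, 9.17 and 9.25 in wild type and 8.44, 8.53, 9.23 and 9.21 in knockout: only replicates 1 and 2 were apart from wild type, and it did not pass (-0.39, SE 0.22, adjusted p = 0.188).

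Of 14 measured G1 and S phase cyclin and kinase genes, 4 rose and 2 fell, or 42.9% past the threshold beside 43.1% of all genes, with a median of 0.10. With random blocks 0 rose and 0 fell, beside 9.04% of all genes past the threshold, and 2 had an unadjusted limma p under 0.05. Cdk6, the other kinase of the D-type cyclins, rose from 8.46, 8.33 and 8.34 to 9.03, 9.03, 8.76 and 8.79 (0.52, SE 0.09, limma adjusted p = 0.00424), opposite to Cdk4. Its groups were apart, as in each of its 3 probe sets. Ccne1, which codes for cyclin E1, rose by 0.28 (SE 0.07, adjusted p = 0.0147). Wee1, which codes for a kinase that inhibits CDK1 and CDK2, was lower (-1.17, SE 0.34, adjusted p = 0.029). Knockout replicates 1 and 2 were at -1.76 and -1.74 from the wild-type mean of Wee1, and replicates 3 and 4 at -0.51 and -0.64. The Wee1 call ended without any 1 wild-type array (adjusted p of 0.0803 to 0.0883) and without knockout replicate 1 or 2 (0.0543 and 0.0557). Ccng2, which codes for cyclin G2, was also lower (-0.50, SE 0.13, adjusted p = 0.0183). The brightest, Ccnh of the CDK-activating kinase, was at 0.17 (SE 0.08, adjusted p = 0.12) and at -0.21 with its 3 probe sets averaged (adjusted p = 0.214). With probe sets averaged per gene, 3 rose and 3 fell, beside 42.3% of all genes (20.2% higher, 22.1% lower), and the median was -0.25.

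Genes for the breakdown of p27, p21 and cyclins went both ways: of 17 measured, 5 rose and 4 fell, or 52.9% beside 43.1% of all genes, with a median of -0.02. With probe sets averaged per gene, 2 rose and 4 fell, beside 42.3% of all genes (20.2% higher, 22.1% lower), and the median was -0.24. With random blocks 1 rose and 1 fell, beside 9.04% of all genes (4.48% higher, 4.56% lower). Skp2, which codes for the ubiquitin ligase subunit that marks p27, fell by 0.42 (SE 0.12, limma adjusted p = 0.0285), and read 7.06 and 7.11 in the first knockout pair, 7.52 and 7.38 in the second, and 7.65 to 7.73 in wild type. Its 3 other probe sets were lower in every knockout array but did not pass (adjusted p of 0.0822 to 0.119 over all probe sets), nor did the average of the 4 (-0.36, adjusted p = 0.0629). Fbxw7, whose product marks cyclin E, fell by 0.53 (SE 0.08, adjusted p = 0.0025), and Usp2, whose product stabilises cyclin D1, fell by 1.00 (SE 0.17, adjusted p = 0.00373). The brightest probe set of the cullin gene Cul4b rose by 1.27 (SE 0.12, adjusted p = 0.000341), but its other probe set was lower (-1.45, SE 0.26), and their mean was at -0.09 (adjusted p = 0.509). The brightest gene, Cks1b, a cofactor of Skp2, was at -0.15 (SE 0.11, adjusted p = 0.322). Its other probe set, 1448441_at, was lower (-0.38, SE 0.09, adjusted p = 0.0172 over all probe sets), and their average did not pass (-0.27, adjusted p = 0.0698).

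E2F target genes, mostly of DNA replication, were largely among those that did not pass: of 27 measured, 2 rose and 3 fell, or 18.5% beside 43.1%, with a median of -0.11. The DNA polymerase gene Pola1 fell by 0.77 (SE 0.09, limma adjusted p = 0.000648) and the histone mRNA binding protein gene Slbp by 0.64 (SE 0.13, adjusted p = 0.00743). A much dimmer Slbp probe set, 1430058_at, overlapped between the groups (0.14, SE 0.18), and their average did not pass (-0.25, adjusted p = 0.219). Pcna, the sliding clamp and the brightest gene of the list, fell by 0.35 (SE 0.05, adjusted p = 0.002), with 11.93 to 11.96 in wild type and 11.58 to 11.61 in knockout. Cdc45, a helicase component, rose by 0.32 (SE 0.10, adjusted p = 0.0307). Per array, the median difference from wild type was -0.29 in knockout replicate 1, -0.30 in replicate 2 and 0.07 in the other two. Without replicates 3 and 4, 15 fell and 2 rose, where 68.1% of all genes passed. Without replicates 1 and 2, 4 fell and 9 rose, where 57% of all genes passed. With random blocks 1 fell and 0 rose, beside 9.04% of all genes (4.48% higher, 4.56% lower).

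Of 16 measured target genes and regulators of p53, whose own gene Trp53 was not analysed here, 6 rose and 4 fell, or 62.5% beside 43.1% of all genes, with a median of 0.14, which was -0.16 without knockout replicates 1 and 2. With random blocks 2 rose and 1 fell, beside 9.04% of all genes (4.48% higher, 4.56% lower). Plk2, a polo-like kinase gene, stood at 10.12, 10.13, 7.21 and 7.10 in knockout beside 5.60 ± 0.09 (SD, n = 3) in wild type (3.04, SE 0.85, limma adjusted p = 0.0245). Pmaip1, a pro-death BCL2 family gene, rose by 0.94 (SE 0.10, adjusted p = 0.000433). Trp53inp1 fell by 2.34 (SE 0.35, adjusted p = 0.00194), and Phlda3, an inhibitor of AKT, by 0.87 (SE 0.19, adjusted p = 0.00947). Ei24, the brightest of the list, fell by 0.39 (SE 0.11, adjusted p = 0.026). Cdkn1a, the best known target of p53, was at 0.04. Ccng1 was at -1.16 on its brightest probe set and at -0.50 with its probe sets averaged, and its probe set 1450016_at was higher (0.34).

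The partners of E2f6 in its Polycomb complex mostly did not pass: of 10 measured, 1 rose and 0 fell, or 10% beside 43.1% of all genes. With random blocks 0 rose and 0 fell, beside 9.04% of all genes past the threshold, and 1 had an unadjusted limma p under 0.05. That gene was Pcgf6, a RING finger subunit (0.48, SE 0.07, limma adjusted p = 0.00225), at 6.62 to 6.82 in wild type and 7.14 to 7.31 in knockout. The brightest, the deacetylase gene Hdac2, was at 0.09 (SE 0.13, adjusted p = 0.607).

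**Figure D4:**
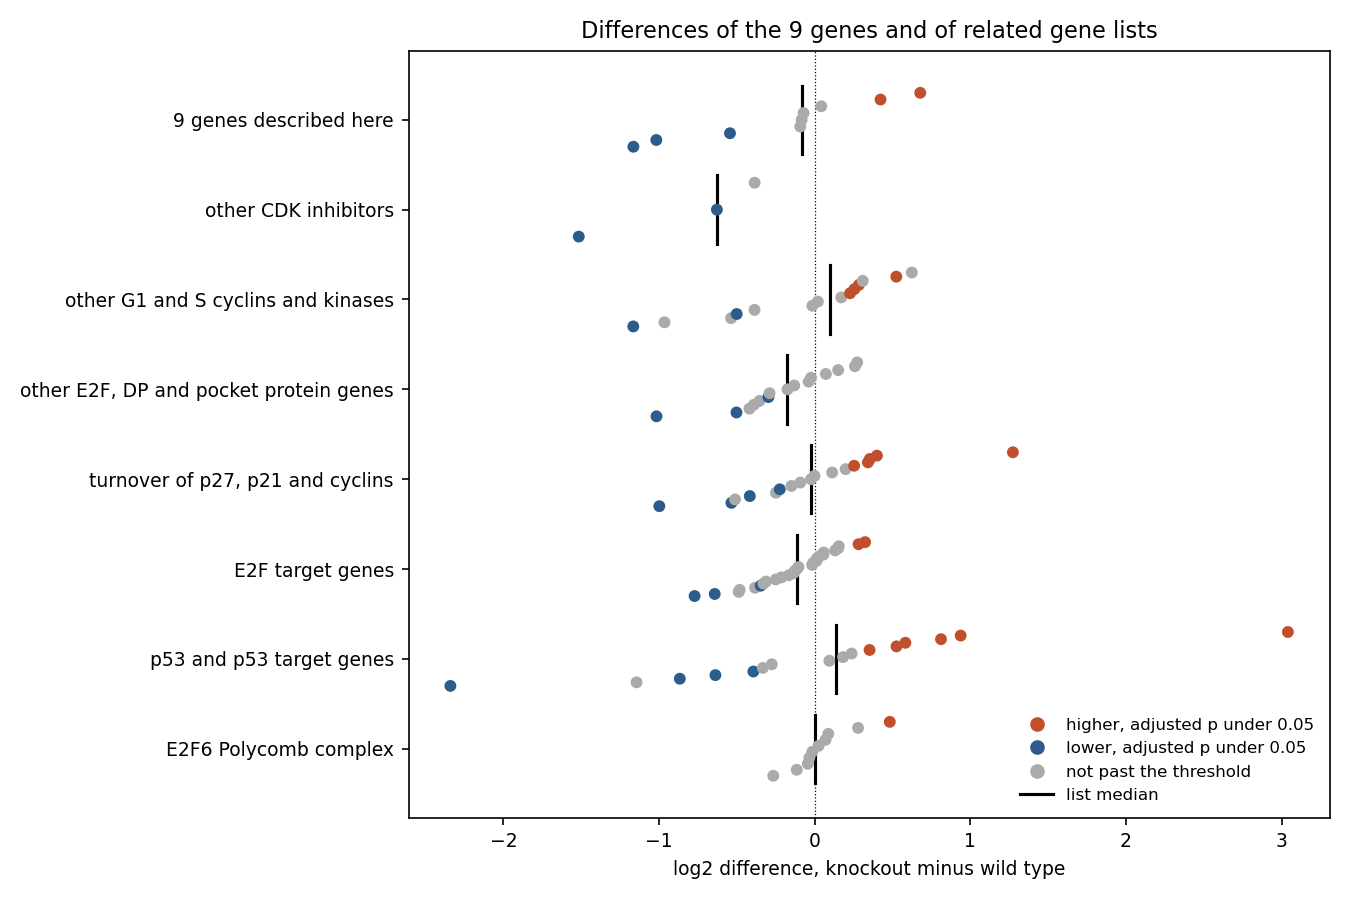
Log2 difference, knockout minus wild type (horizontal axis), of each measured gene in the 9 members and 7 related lists (rows), coloured by the limma call, with the list median as a black bar. Medians lie between -0.63 (3 inhibitor genes) and 0.14 (p53 list), and most E2F target and Polycomb partner genes are grey.

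Of the 23 related genes named above that passed, 6 also passed with random blocks: Cdkn3, Cul4b, Usp2, Pola1, Trp53inp1 and Pmaip1. A further 9 had only an unadjusted p under 0.05 there. Of all genes, 4305 passed with the arrays independent and 904 with random blocks. The 23 genes were largely picked by size of change among genes that passed, so this count only describes them. Cul4b counts here by its brightest probe set, and its other probe set was lower (-1.45). Other calls depended on the alternative as well: Skp2 passed in 10 of 17, Ei24 in 11 of 17, Cdc45 in 10 of 16, E2f2 in 12 of 17 and Plk2 in 13 of 17.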

How the data were processed

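RNA from 7 samples of RAW264.7 cells was measured on Affymetrix arrays, 3 wild type and 4 labelled knockout, as the titles give them. The authors deposited 1 linear intensity per probe set and array; RMA is named in the submitters' processing notes, without a version, and other steps are not stated there. Array medians ran from 93.8 to 101. RMA as usually run equalises the arrays' distributions, which removes differences in total RNA. The number of arrays limits the precision.

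Log2 was taken. Of 19431 probe sets 17335 had 1 symbol in the platform annotation, and each of 9999 genes was represented by its brightest probe set. Groups were compared with limma 3.58.1 in R 4.3.3 (2-group model, defaults, Benjamini-Hochberg, adjusted p of 0.05). The code was tested on simulated data with independent arrays, which cannot show how the test behaves with close pairs. Intervals are 95% and two-sided. The 9 members and all lists were chosen with earlier results of these data known. Named were all members, up to 4 passing genes per list by size with its brightest gene, and the 3 genes most like the member of largest difference; E2f1 and E2f4 were named after their values were seen. Alternatives covered normalization, dim genes, variance models, probe sets, blocks and left-out arrays; testing each probe set alone was added after seeing the data. Sequences are from RefSeq.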

Additional observations from a re-analysis of the deposited data

How the results depend on the processing

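Of the 5 members that passed, Cdkn1b, Cdk4, Ccng1, E2f5 and Rb1, each kept its direction under every alternative that gave it a value, apart from 1 Ccng1 probe set that was higher on its own. E2f5 gave none when genes under the 40th percentile of signal were left out. That left 4 members past the threshold (1 higher, 3 lower), beside 49% of the genes kept (24.9% higher, 24.1% lower). With random blocks 0 members passed (0 higher, 0 lower), and 904 of all genes did (448 higher, 456 lower), beside 4305 with all arrays independent. Leaving out 1 array in turn gave 3 to 5 members (2 higher in each case, 1 to 3 lower) and 2879 to 4465 genes, or 28.8% to 44.7% (1379 to 2182 higher, 1500 to 2289 lower). The 3 arrays whose absence cost Ccng1 and Rb1 their calls were the wild-type ones, and Ccng1 alone also lost it without knockout replicate 1 or 2. Without knockout replicates 3 and 4, 6814 genes passed (3406 higher, 3408 lower). Testing each probe set alone gave 7088 (3401 higher, 3687 lower) of 17335. Ccnd1 turned to 0.19 without knockout replicates 1 and 2, and Cul4b to -0.087 with the mean of its probe sets. Ccnd1 also turned to 0.01 without knockout replicate 1 alone and to 0.0086 without replicate 2 alone, and did not pass in either case. Small differences that had not passed also changed sign for Cdkn1a, Ccnh, Tfdp1, Cks1b and Hdac2 under 1 alternative each. With the replicate block, which takes nothing from knockout replicate 4 because no wild-type array shares its number, 5 members and 3805 genes (38.1%) passed. The numbers were not taken as pairing the arrays: deviations from the group means correlated at 0.12, -0.09 and 0.11 for numbers 1 to 3, and not every array correlated best with its own number. The causes of these shifts were not tested.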
